A study of Homo sapiens with 4 samples.

Results

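The G2/M and mitotic genes are 56 genes, most of which act between the end of DNA replication and the separation of the daughter cells. They were chosen by name, in 7 groups by function, as genes whose mRNA is usually low when the cell cycle inhibitor p21 is high, and all 56 were found among the 30843 genes of the deposited table. The samples were A549 cells, a line from a human lung adenocarcinoma whose genotype the labels give as WT, grown in 2D on a rigid plate in medium with serum for 4 days. In the RM+ group, respiratory motion (RM) was simulated by letting the air pressure in a sealed chamber swing between atmospheric and slightly below it, and the RM- group was kept without it. Each group had 2 samples, numbered 1 and 2, and by the labels the number is also the batch, so that each batch holds 1 sample of either group. The study states that key 2D experiments were repeated independently. Whether the sequenced samples of a group were grown as separate cultures is not stated in the sources used here, and the p-values cover only the spread between them, which may be technical.

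Entry into mitosis is driven by CDK1 bound to cyclin B, and the order of the later steps is set by Aurora and Polo kinases, by the spindle checkpoint, and by the anaphase-promoting complex (APC/C), which marks cyclin B and securin for destruction. The genes for these proteins are switched on together late in the cycle by B-MYB and FOXM1, acting through a promoter element called the CHR (cell cycle genes homology region) and nearby CCAAT boxes, which NF-Y binds. When p21 inhibits the cyclin-dependent kinases, the DREAM complex forms on the same CHR and represses them. In dividing cultures of epithelial tumour cells, these mRNAs are therefore read as markers of proliferation.

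*CDKN1A*, which encodes p21, was at 1183 and 1035 normalized counts in the RM- replicates 1 and 2 and at 2420.3 and 2399 in the RM+ replicates 1 and 2. Both RM+ samples lay above both RM- samples, and the log2 fold change, RM+ over RM-, was 1.12 (standard error, SE, 0.091, limma adjusted p = 6.29e-06). A normalized count is the reads of a gene divided by a size factor for the depth of the sample, and fold changes are on the scale of log2(normalized count + 1). With no filter on low values, the adjusted p of *CDKN1A* was 0.357, at the same fold change.

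The 56 mitotic genes, all of which passed the filter on low values, lay mostly a little below their RM- level, and no single gene passed the test. None of the 56 was lower or higher at an adjusted p under 0.05 in limma, where 0.794% of the 17632 genes tested were lower and 1.46% were higher. The smallest adjusted p among them in limma was 0.13, for *ECT2*. Many of the 56 genes are switched on together late in the cycle, so counts over them are not of independent genes. The log2 fold change was below 0 for 44 of the 56 (78.6%), against 50.7% of all genes tested, and its median was -0.089, a level 5.96% lower, against -0.0029 over all genes tested. At an unadjusted p under 0.05, 10 mitotic genes were lower (6.8% of all genes) and 0 were higher (7.68% of all genes). edgeR called 0 of the 56 at an adjusted p under 0.05, against 0.72% of all genes lower and 1.27% higher, and 12 lower and 0 higher at an unadjusted p under 0.05, against 7.27% and 7.49%. DESeq2 also called 0, against 0.726% and 1.3%, with 8 lower and 0 higher at an unadjusted p under 0.05, against 3.98% and 4.72%. Among the 56, the smallest adjusted p was 0.109 in edgeR and 0.0551 in DESeq2, the latter just above the threshold. With a log2 fold change beyond 1 required as well, limma called 0, against 0.403% of all genes lower and 0.749% higher. When the batch was entered as a block, 7 passed in limma, all lower: *CCNB2*, *AURKA*, *KIF14*, *BUB1*, *PTTG1*, *TPX2* and *ECT2*, where 4.63% of all genes tested were lower and 5.1% were higher. That fit leaves 1 residual degree of freedom and rests on a spread pooled over all genes.

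The intervals give a range for the size of any fall in these samples. They rest on the spread between 2 samples per group, which may be technical, and so may not hold for separate cultures. In 55 of the 56 genes, the 95% interval of the log2 fold change from limma lay above a fall of 1.5-fold. The exception was *NUSAP1*, which had almost no reads, and none of the 56 intervals reached down to a fall of 2-fold. Among the 54 genes whose mean reached 100 normalized counts, the log2 fold changes lay between -0.27 and 0.099, with standard errors of 0.082 to 0.13. The 56 genes together made up 0.589% and 0.61% of all reads in RM- replicates 1 and 2, and 0.561% and 0.582% in RM+ replicates 1 and 2. In bulk RNA, fewer cells in G2 or mitosis and less mRNA per cell cannot be told apart.

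**Figure D1:**
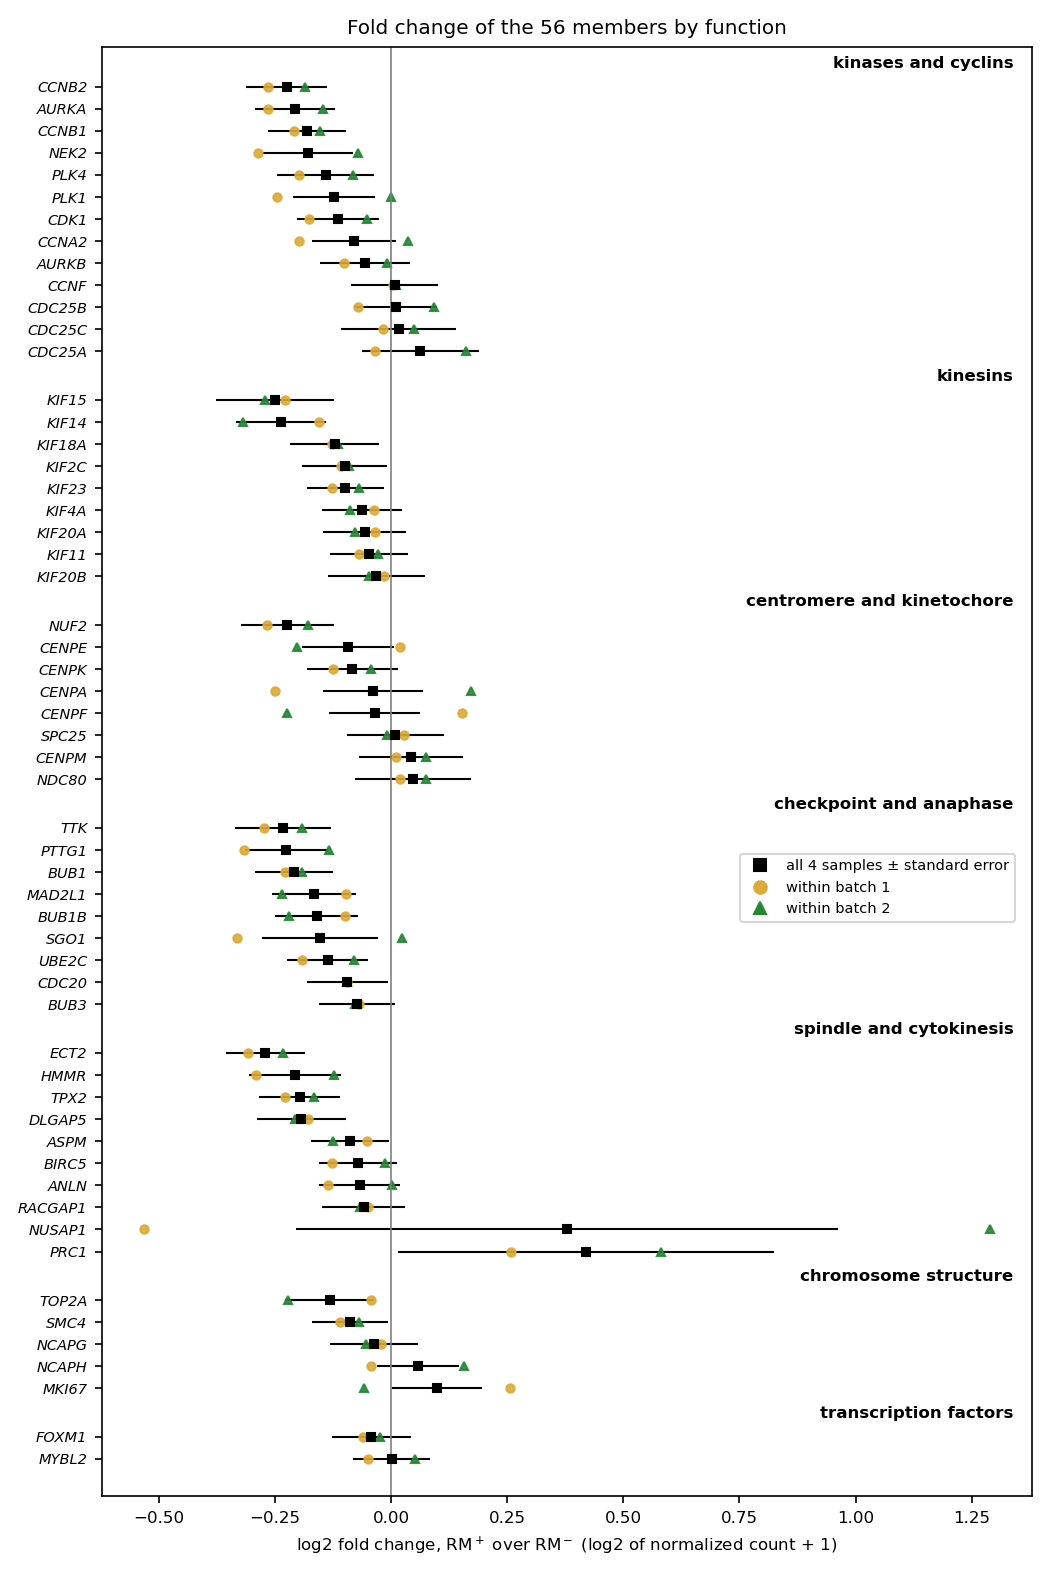
Log2 fold change, RM+ over RM-, of each of the 56 mitotic genes, grouped by function and sorted within each group. Black squares are the values over all 4 samples with their standard errors, circles the difference within batch 1 and triangles that within batch 2. The kinesins lay left of 0 in both batches, whereas the centromere genes lay on both sides.

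The promoters were searched for the 2 elements named above. RefSeq promoter windows on GRCh38.p14, from 250 bases before to 50 bases after the start site, were matched by symbol for 47 of the 56 genes. A CHR-type word, TTTGAA or TTCGAA on either strand, was found in 35 of the 47 (74.5%), against 15.5% of the 11811 tested genes with a window and 19.5% of all 27305 genes in the RefSeq table. The box CCAAT, on either strand, was found in 37 (78.7%), against 42.2% of tested genes, and both were found in 27 (57.4%), against 6.48%. The first base of the nearest CHR-type word lay within 50 bases of a start site in 29 of the 35 genes, and in 31.3% of the tested genes that have one. A match of letters is a description of the sequence and not a bound site.

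Promoters of the kinases and cyclins, kinesins, checkpoint, centromere and chromosome structure genes are shown, 5′ to 3′ on the strand of the gene. No promoter is shown for the spindle and cytokinesis genes or for the transcription factors. Capitals mark the CHR-type word and the CCAAT box, each as it reads on this strand, so that TTCAAA and ATTGG are matches on the other strand. Positions count from the start site as 1, with no 0. *CCNB2*, *KIF14* and *BUB1* were lower with the block, *PLK1*, *KIF23*, *CDC20* and *CENPA* were not called, and *MKI67* had a fold change above 0. All of them were picked from the genes with a CHR-type word. Of the other genes lower with the block, *ECT2* has such a word and *PTTG1* has CCAAT boxes but none. *AURKA* and *TPX2* have no promoter window. The windows are CCNB2 chr15:59105057-59105132 on the plus strand (CHR at -29), KIF14 chr1:200620735-200620810 on the minus strand (CHR at 2), BUB1 chr2:110678047-110678122 on the minus strand (CHR at 2), PLK1 chr16:23678800-23678875 on the plus strand (CHR at -29), KIF23 chr15:69414234-69414309 on the plus strand (CHR at -55), CDC20 chr1:43358856-43358931 on the plus strand (CHR at -65), CENPA chr2:26785978-26786053 on the plus strand (CHR at -18) and MKI67 chr10:128126437-128126512 on the minus strand (CHR at -29).
CCNB2: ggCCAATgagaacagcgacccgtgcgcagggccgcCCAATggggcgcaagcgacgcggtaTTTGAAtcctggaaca
KIF14: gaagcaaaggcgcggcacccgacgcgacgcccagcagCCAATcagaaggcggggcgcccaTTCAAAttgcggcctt
BUB1: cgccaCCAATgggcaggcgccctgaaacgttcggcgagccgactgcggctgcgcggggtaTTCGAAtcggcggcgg
PLK1: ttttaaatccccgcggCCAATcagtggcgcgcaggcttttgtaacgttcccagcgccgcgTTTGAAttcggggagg
KIF23: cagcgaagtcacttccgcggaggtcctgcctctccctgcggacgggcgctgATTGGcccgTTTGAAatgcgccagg
CDC20: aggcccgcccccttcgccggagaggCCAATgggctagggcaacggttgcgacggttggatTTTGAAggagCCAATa
CENPA: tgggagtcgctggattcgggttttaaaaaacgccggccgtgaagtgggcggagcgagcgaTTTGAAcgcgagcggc
MKI67: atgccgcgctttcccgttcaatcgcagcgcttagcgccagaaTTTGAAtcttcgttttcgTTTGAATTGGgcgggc

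*CCNB2* and *PLK1* both carry TTTGAA at -29 behind a CCAAT box, and their log2 fold changes were -0.22 and -0.12, each with an SE of 0.088, a difference that was not tested. *MKI67* carries TTTGAA 2 times in its window, and its log2 fold change was 0.099. Over the 35 genes with a CHR-type word, the median log2 fold change was -0.094 with 27 below 0, and over the 12 genes without one it was -0.082 with 9 below 0.

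**Figure D2:**
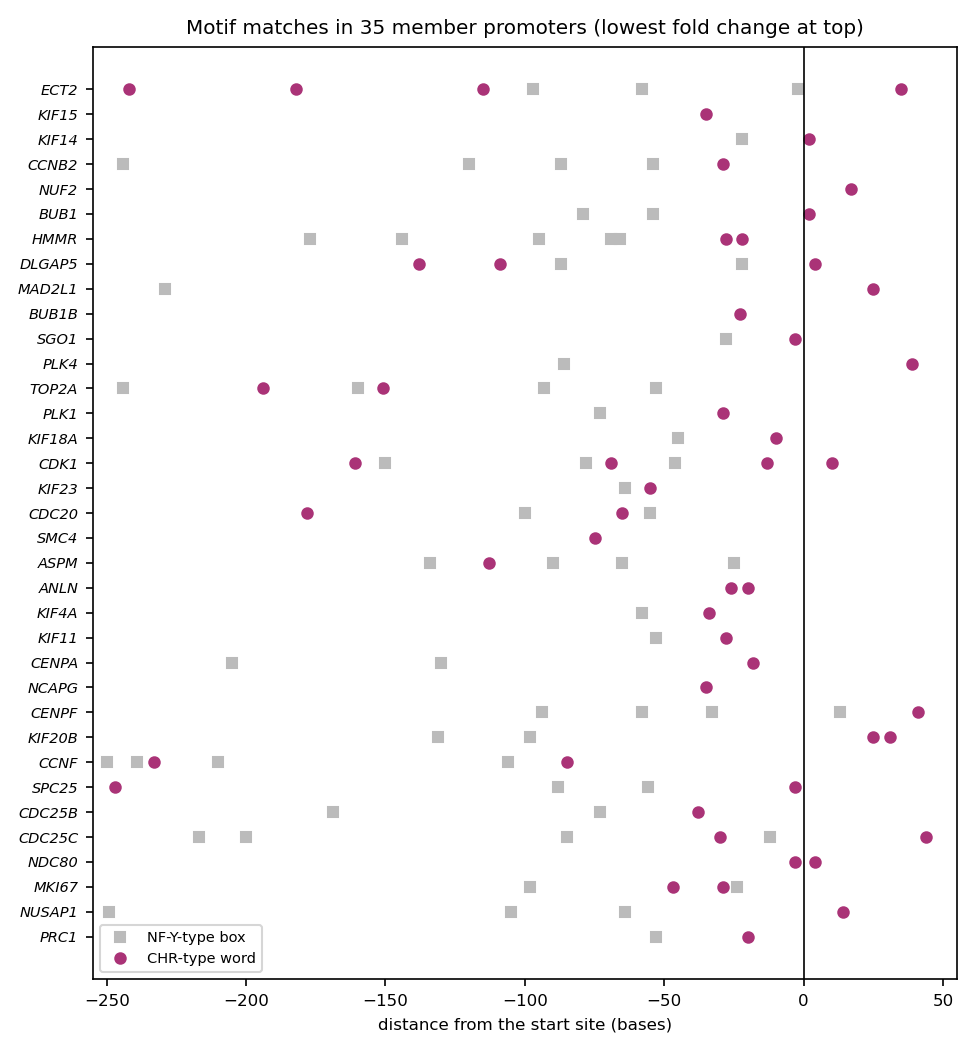
Position of each CHR-type word (circles) and each NF-Y-type box (squares) relative to the start site, in bases, in the 35 mitotic genes with a CHR-type word, sorted from the lowest log2 fold change at the top. Where a gene has more than 1 start site, its matches are drawn together. In 29 of the 35, the nearest CHR-type word lay within 50 bases of a start site.

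Of the 13 kinases, cyclins and their activators, none passed in limma, 9 were below 0, and the median log2 fold change was -0.11. *CCNB1* encodes cyclin B1, the partner of CDK1 at mitotic entry, and was at 4176 and 4333 normalized counts in the RM- replicates and at 3614 and 3899 in the RM+ replicates. Both RM+ samples were lower, with a log2 fold change of -0.18 (SE 0.084, limma adjusted p = 0.334, and 0.0566 with the block). *CCNB2*, for cyclin B2, was at 1392 and 1386 against 1158 and 1219.7, again with no overlap, and its log2 fold change of -0.22 (SE 0.088, limma adjusted p = 0.23) passed with the block (adjusted p = 0.0391). *AURKA* encodes the Aurora kinase of the centrosomes and spindle poles. Its values were 2429 and 2463 against 2020.0 and 2224, and the log2 fold change was -0.21 (SE 0.086, limma adjusted p = 0.265, and 0.035 with the block).

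*CDK1*, the kinase at the centre of the group, was at 2397 and 2488 in the RM- and at 2122 and 2401 in the RM+ replicates. The groups overlapped, since RM+ replicate 2 lay above RM- replicate 1. *PLK1*, the main Polo kinase, was at 3384, 2959, 2854 and 2959 in the same order. Its log2 difference was -0.25 within batch 1 and 0.00036 within batch 2. Among the rest, *CCNA2* (cyclin A2), *AURKB* (the Aurora kinase of the chromosomal passenger complex), *PLK4* (which starts centriole duplication) and *NEK2* (a centrosomal kinase) had log2 fold changes of -0.080, -0.056, -0.14 and -0.18. The phosphatase genes *CDC25A*, *CDC25B* and *CDC25C*, which encode the activators of the cyclin-dependent kinases, and *CCNF*, for the cyclin F that serves as part of a ubiquitin ligase, had log2 fold changes of 0.063, 0.010, 0.016 and 0.0074, with adjusted p-values of 0.887, 0.978, 0.976 and 0.984 from limma. Of these, *CDC25B* had the highest level per kilobase of exon among the 56 genes, with a mean of 1871 normalized counts per kilobase, and was at 8525 and 7575 in the RM- and at 8115 and 8070.4 normalized counts in the RM+ replicates.

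The kinases and cyclins had different values in the 2 batches, a difference that was not tested. Within batch 1, 12 of the 13 were lower in the RM+ sample, with a median of -0.20, and within batch 2, 7 of the 13 were lower, with a median of -0.0098. Leaving out RM- replicate 1 gave a group median of -0.044, and leaving out RM+ replicate 1 gave -0.064. It was -0.15 without RM- replicate 2 and -0.16 without RM+ replicate 2, against -0.11 over all samples.

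**Figure D3:**
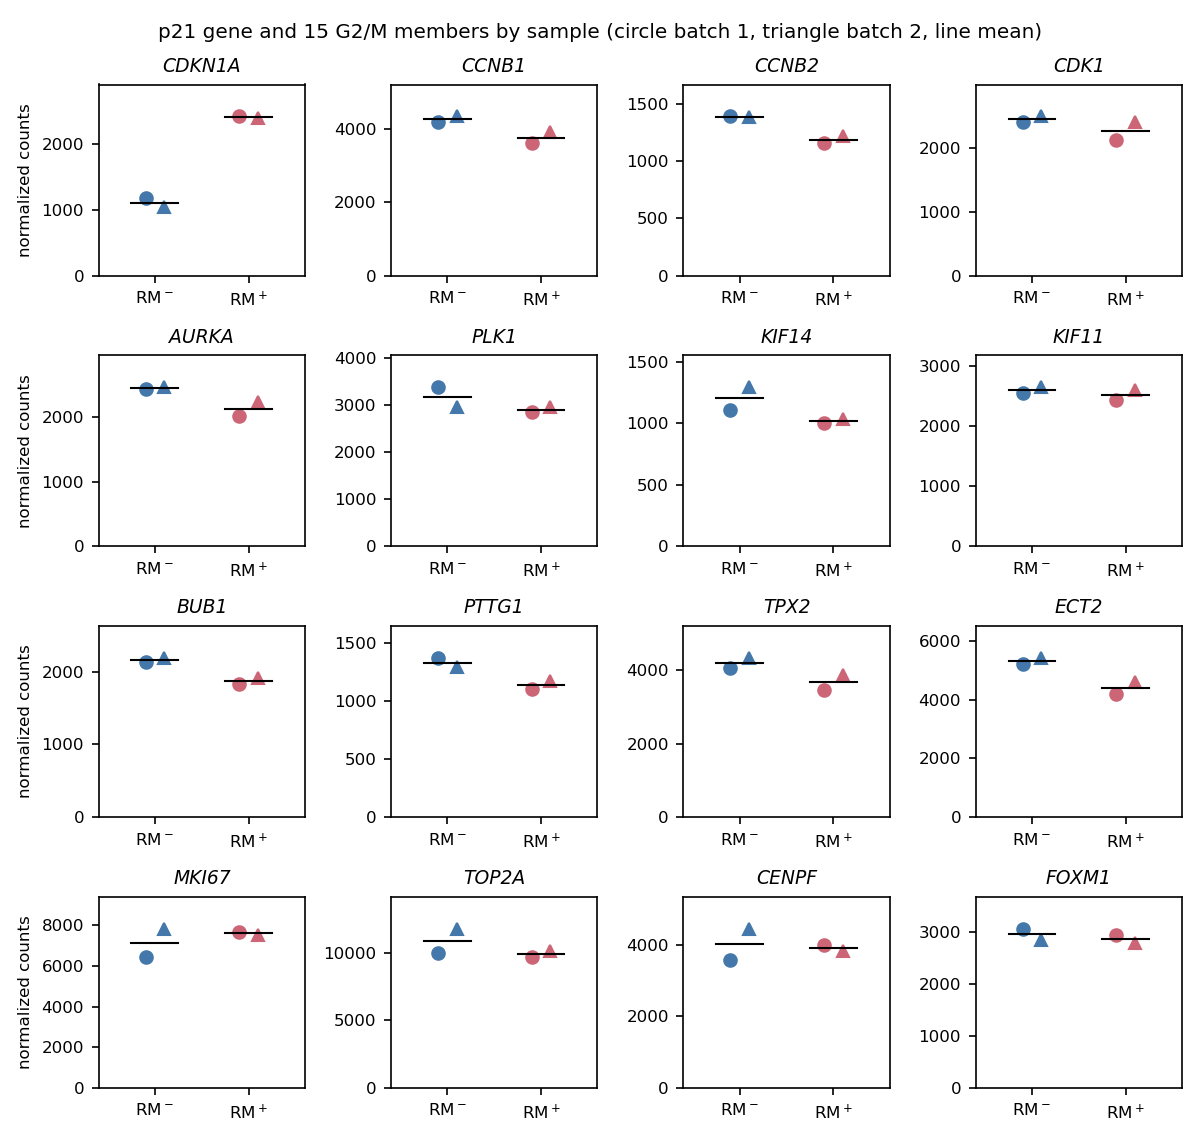
Normalized counts of *CDKN1A* and of 15 mitotic genes in each sample, with the axis starting at 0. Circles are batch 1, triangles batch 2 and lines the mean of the 2 samples of a group. *CDKN1A* was at 1035 to 1183 in the RM- and at 2399 to 2420.3 in the RM+ group, while the groups of *ECT2*, *CCNB1*, *CCNB2*, *AURKA*, *KIF14*, *BUB1*, *PTTG1* and *TPX2* were separated by far less and those of the other genes overlapped.

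All 9 kinesins, the motor proteins that build the spindle and move chromosomes along it, were below 0, and they were lower in the RM+ sample of both batches, where 31.9% of all genes tested were lower in both. None passed in limma, and the median log2 fold change was -0.098, with a range of -0.25 to -0.032. *KIF14*, a motor of the midzone and of cytokinesis, was at 1113 and 1295 in the RM- and at 999.8 and 1039 in the RM+ replicates. Its log2 fold change was -0.24 (SE 0.097, limma adjusted p = 0.259), and it was the only kinesin called with the block (adjusted p = 0.0352). *KIF15*, which helps to keep the spindle bipolar, had the lowest fold change of the group at -0.25 on the log2 scale (SE 0.13, limma adjusted p = 0.392). Its values of 390.4 and 465.5 against 333.3 and 385.7 did not overlap, but their difference from batch 1 to batch 2 was almost as large (0.23 on the log2 scale).

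The log2 fold changes of *KIF2C*, which takes microtubule ends apart at the centromere, of the chromosome arm motor *KIF4A* and of *KIF20B* were -0.10, -0.063 and -0.032. *KIF18A*, a motor that damps chromosome oscillation at the plate, was at 772.8 and 786.7 against 707.2 and 727 normalized counts. *KIF20A*, needed for cytokinesis, was at 1101 and 1146 against 1074 and 1085, with no overlap at a log2 fold change of -0.057 (limma adjusted p = 0.842). *KIF11*, the Eg5 motor that pushes the spindle poles apart, was at 2560.4 and 2653 against 2442 and 2602, and *KIF23*, which builds the midzone with RACGAP1, was at 2843 and 2860.2 against 2601 and 2727. The groups overlapped for *KIF11* and not for *KIF23*. Without RM- replicate 2 or without RM+ replicate 1, 8 of the 9 kinesins were below 0.

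The 8 centromere and kinetochore genes, which encode the platform that holds chromosomes to spindle fibres, had a median log2 fold change of -0.038, with 5 below 0 and none past the threshold in limma. *NUF2* belongs to the NDC80 complex, the rod that grips microtubules. Its values were 684 and 676.8 against 568 and 597.7, with a log2 fold change of -0.22 (SE 0.10, limma adjusted p = 0.311), whereas its partners *NDC80* and *SPC25* had log2 fold changes of 0.047 and 0.0086 (adjusted p = 0.923 and 0.983). Whether *NUF2* differs from its partners was not tested. *CENPE*, a kinetochore motor, was at 894.8 and 1047 against 906.4 and 909.7, and *CENPK*, a subunit of the constitutive centromere network, at 713.2 and 706.4 against 654.4 and 685.6.

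*CENPF*, a kinetochore and nuclear matrix protein of G2, was at 3587 and 4456 in the RM- and at 3988 and 3815 in the RM+ replicates. It was higher in the RM+ sample within batch 1 (0.15 on the log2 scale) and lower within batch 2 (-0.22). *CENPA*, the histone that marks the centromere, did the reverse, with -0.25 and 0.17. *CENPM* had a log2 fold change of 0.043 (limma adjusted p = 0.922). In 6 of these 8 genes, the difference between the batches was larger than that between the groups, as it was in 44.7% of all genes tested, and without RM- replicate 2 the median of the group was 0.0092.

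The 9 genes of the spindle checkpoint and of anaphase were all below 0, with the lowest median of the 7 groups at -0.16. In 7 of them both RM+ samples lay below both RM- samples, where 22.2% of all genes tested showed the same. *BUB1*, a checkpoint kinase at the kinetochore, was at 2143 and 2195 in the RM- and at 1830.0 and 1921 in the RM+ replicates, with a log2 fold change of -0.21 (SE 0.084, limma adjusted p = 0.245, and 0.0355 with the block). *PTTG1* encodes securin, which holds separase inactive until anaphase. It was at 1374 and 1291 against 1102 and 1177, with a log2 fold change of -0.23 (SE 0.090, limma adjusted p = 0.245, and 0.0405 with the block).

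*TTK*, the MPS1 kinase that starts the checkpoint signal, was at 787.9 and 861.3 against 651.3 and 754.2, and its log2 fold change of -0.23 (SE 0.10) passed in neither fit (adjusted p = 0.31 in limma and 0.0709 with the block). *BUB3*, which carries BUB1 and BUBR1 to the kinetochore, had the highest mean count of the group and was at 3512 and 3659 against 3347 and 3469. *CDC20*, the APC/C activator at anaphase onset, was at 1899.6 and 1778 against 1779 and 1666, so that the groups overlapped. Its log2 fold change was -0.094 in each batch. The checkpoint genes *BUB1B* and *MAD2L1*, the cohesin protector *SGO1* and the APC/C ubiquitin carrier *UBE2C* had log2 fold changes of -0.16, -0.17, -0.15 and -0.14.

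Of the 10 spindle and cytokinesis genes, 8 were below 0, with a median of -0.080. *ECT2* (ENSG00000114346, chromosome 3 from 172750682 to 172821474 of GRCh38), the exchange factor that activates RhoA at the cleavage furrow, had the lowest log2 fold change of the 56 genes. It was at 5192 and 5419 normalized counts in the RM- and at 4193 and 4611 in the RM+ replicates, with -0.27 on the log2 scale (SE 0.086, limma adjusted p = 0.13), and it had the smallest adjusted p of the 56 with the block (0.000883). *TPX2*, which activates AURKA on the spindle, was at 4064 and 4336 against 3469 and 3867. Its log2 fold change was -0.20 (SE 0.087, limma adjusted p = 0.302, and 0.0323 with the block). *HMMR*, a spindle protein also known as a hyaluronan receptor, was at 1376 and 1468 against 1124 and 1349, with no overlap (limma adjusted p = 0.351, and 0.0624 with the block).

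The spindle genes *DLGAP5* and *ASPM*, the survivin gene *BIRC5*, and the cleavage furrow genes *ANLN* and *RACGAP1* had log2 fold changes of -0.19, -0.088, -0.071, -0.067 and -0.059.

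The 2 spindle genes above 0 had few reads and are uncertain. *NUSAP1*, for a microtubule-bundling protein, was at 15.1 and 4.78 against 10.2 and 13.1 normalized counts, and *PRC1*, for the bundler of the midzone, at 15.1 and 17.2 against 18.3 and 26.3. Of the 31-base words of their transcripts, 69.8% of those of *NUSAP1* are shared with AC087721.2 and 64.5% of those of *PRC1* with AC068831.7, 2 genes annotated on the same strand, and how reads that fit both were counted is not stated by the sources at hand. Exons of other genes on the same strand cover 62.2% of the exon bases of *NUSAP1* and 57.6% of those of *PRC1*. AC068831.7 had a mean of 90.5 normalized counts, and *PRC1-AS1*, which overlaps *PRC1* on the other strand, had a mean of 2300. The low counts of *NUSAP1* and *PRC1* therefore cannot be read as low mRNA levels. *PRC1* was the only mitotic gene with both RM+ samples above both RM- samples (22.2% of all genes tested), at a log2 fold change of 0.42 (SE 0.41, limma adjusted p = 0.706).

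*MKI67*, which encodes the proliferation marker Ki-67, a coat protein of mitotic chromosomes, was at 6437 and 7846 in the RM- and at 7689 and 7535 in the RM+ replicates. The RM+ values lay between the RM- values, and the log2 fold change was 0.099 (SE 0.097, 95% interval -0.11 to 0.30, limma adjusted p = 0.711). Batch 1 alone gave 0.26 and batch 2 alone -0.058. *TOP2A*, for the topoisomerase that untangles sister chromatids, was at 9974 and 11771 against 9683 and 10095. Its log2 fold change was -0.13 (SE 0.096, 95% interval -0.34 to 0.071, limma adjusted p = 0.589).

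*SMC4*, a core subunit of condensin, was at 4079.7 and 4127 against 3781 and 3937, with no overlap, and *NCAPH*, another condensin subunit, at 1517 and 1399 against 1473 and 1559.97. The third condensin gene, *NCAPG*, had a log2 fold change of -0.037, and 3 of the 5 genes of chromosome structure were below 0. *FOXM1* and *MYBL2* encode the transcription factors FOXM1 and B-MYB that drive many of the other genes. They were at 3064 and 2844 against 2939 and 2796, and at 2432 and 2285 against 2349 and 2369. Their log2 fold changes were -0.042 and 0.00098 (adjusted p = 0.887 and 0.999 from limma), and the RM groups overlapped for both. The value of *MYBL2* was just below 0 with upper-quartile scaling and in edgeR.

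The difference between the batches was larger than that between the RM groups in 25 of the 56 genes, a share near that of all genes tested (44.7%). In the fit with both terms, 0 of the 56 differed between batches at an adjusted p under 0.05 in limma, with a smallest adjusted p of 0.106, where 1.75% of all genes tested were lower in batch 2 and 0.34% were higher. The median log2 difference, batch 2 minus batch 1, was 0.051. No kinesin was lower in batch 2, where 46.0% of all genes were. Both RM+ samples lay below both RM- samples in 27 of the 56 genes (22.2% of all genes tested), and 37 were lower in the RM+ sample of both batches (31.9% of all genes tested), 4 were higher in both (30.8% of all genes tested), and 15 had opposite signs. The median over the 56 was -0.11 within batch 1 and -0.070 within batch 2. The 56 are not independent, and they differ in level from the genes they are set beside. The median of their mean counts was 1367, against 321 over all genes tested, and their median SE was 0.091, against 0.13.

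**Figure D4:**
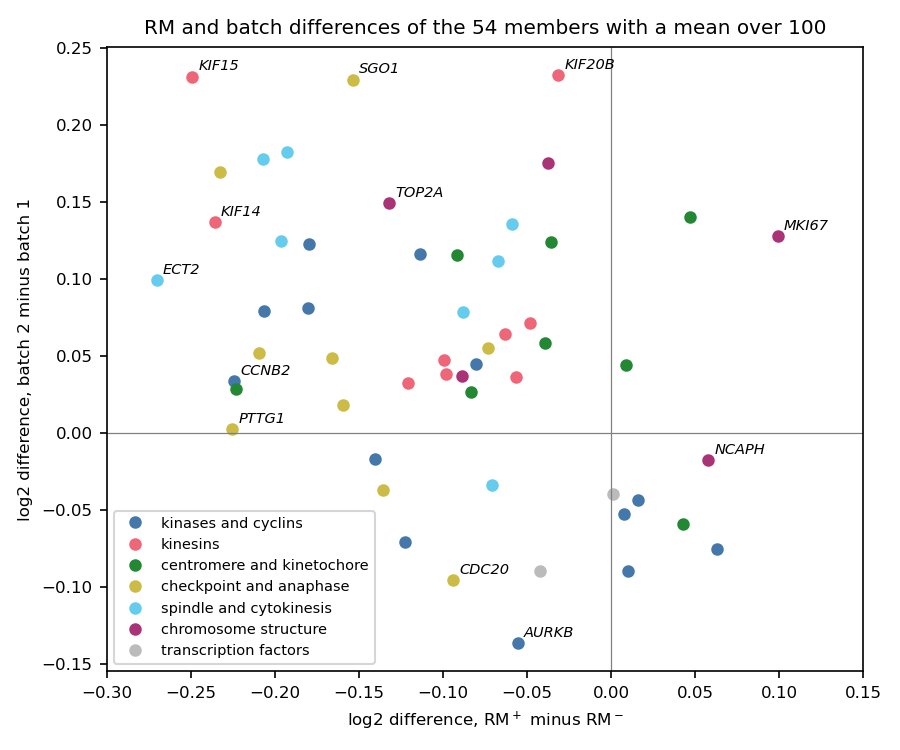
Log2 difference between the batches (vertical) against that between the RM groups (horizontal) for the 54 mitotic genes whose mean reached 100 normalized counts, coloured by function. Most points lie left of 0, and vertical differences reach 0.23, as for *KIF15*, while horizontal ones reach -0.27, for *ECT2*.

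Other genes of the same pathway gave the following values. Of 64 further mitosis genes tested, 0 were lower and 0 higher in limma, 46 were below 0 and the median log2 fold change was -0.047. With the block, 4 of them were lower, a share near the 4.63% of all genes tested, among them *SGO2*, the protector of centromeric cohesion, at 897.9 and 1032 against 712.3 and 837 normalized counts (limma adjusted p = 0.16, and 0.00394 with the block), and *HMGB2*, a chromatin protein of dividing cells (adjusted p = 0.214, and 0.0254 with the block). *DEPDC1*, named after its value was seen, was another (adjusted p = 0.0135 with the block). Of the 17 subunits and coactivators of the APC/C, none passed in limma, 16 were below 0, and the median was -0.035, with *ANAPC4* at -0.25 and *ANAPC7* at -0.14 (adjusted p = 0.351 and 0.539).

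The 13 genes of the DREAM and MMB complexes, which repress and activate the CHR genes, had a median of -0.018, with 7 below 0 and none past the threshold in limma. With the block, 3 were lower (4.63% of all genes tested), among them *E2F5* at a log2 fold change of -0.29 and the p130 gene *RBL2* at -0.24 (adjusted p = 0.0205 and 0.0213 with the block, 0.178 and 0.204 without), and the other, named after its value was seen, was *E2F4* (adjusted p = 0.0498 with the block). Among 35 S phase and DNA replication genes, 1 was higher in limma (1.46% of all genes tested) and 0 were lower (0.794%), 19 were below 0, and the median was -0.013. The higher gene was *CCNE1*, for the cyclin E1 that starts S phase with CDK2, at 513.5 and 476.1 against 683.8 and 639.1 normalized counts (log2 fold change 0.42, adjusted p = 0.046 from limma). It no longer passed in edgeR (adjusted p = 0.0554), in DESeq2 (0.0826) or with no filter (0.42), nor with any sample but RM- replicate 1 left out (0.0535 to 0.17). With the block 3 were higher (5.1% of all genes tested), *CCNE1*, *CCNE2*, for cyclin E2 (adjusted p = 0.0243, and 0.166 without), and *RRM2*, a subunit of ribonucleotide reductase that was named after its value was seen (adjusted p = 0.0446, and 0.343 without). A CHR-type word was found in 36 of the 52 further mitosis genes with a promoter window (69.2%), and in 2 of the 30 S phase genes (6.67%).

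**Figure D5:**
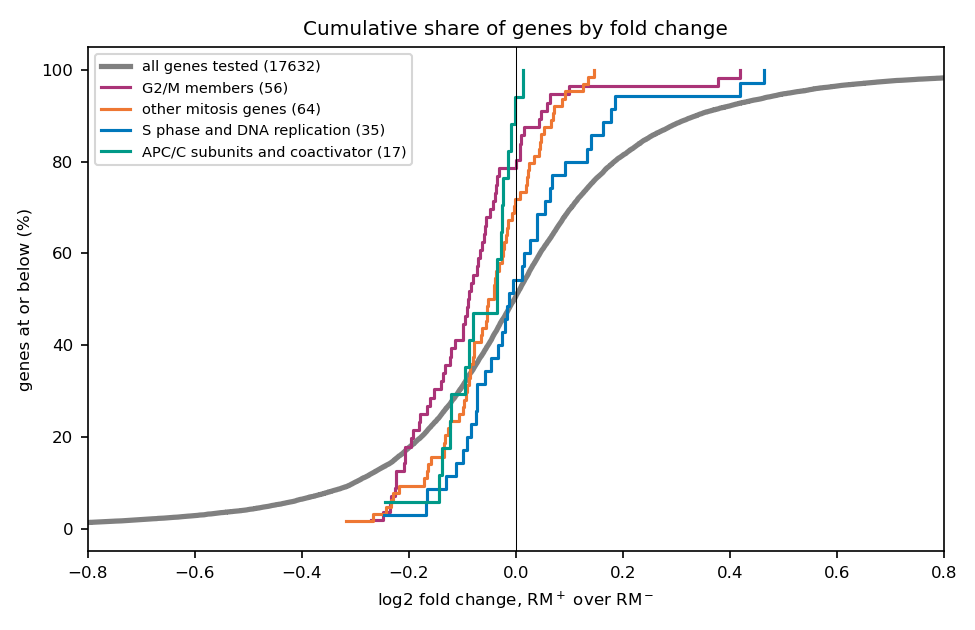
Cumulative share of genes, in percent, by log2 fold change, RM+ over RM-, for the 56 mitotic genes, 64 further mitosis genes, 35 S phase genes, 17 genes of the APC/C and all 17632 genes tested. The curve of the 56 mitotic genes crosses 0 at 78.6% and that of all genes at 50.7%, and the curves of the lists are steeper than that of all genes.

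Some limits apply to all of these values. Total reads were 18754356 to 20412283 per sample, and counts differed between same-group samples beyond counting error, with a chi-square per gene of 9.69 (RM-) and 11.3 (RM+), where counting error alone gives about 1. Exons of genes on the other strand cover the largest shares in 4 genes, 33.1% of the exon bases of *NCAPG*, 25.6% of *SMC4*, 17.7% of *SGO1* and 15.9% of *FOXM1*, and the sources used here do not give the strand setting of the counting, so reads of such partners cannot be told apart. Of the words of *KIF4A*, 27.9% are shared with *KIF4B*. Of those of *CDC20*, 23.6% are shared with the pseudogene CDC20P1, and of those of *AURKA*, 17% with *RAB3GAP2*. The epithelial markers matched the label, with *KRT8* at 52561 to 61629 and *CDH1* at 2368 to 2869 normalized counts, though *EPCAM* was at 45.4 to 67.9. Of 11 fibroblast, endothelial and immune markers with a row in the table, 9 were below 10 normalized counts in every sample, and the others were *COL1A1* at 130.2 to 154 and *CD14* at 181 to 231.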

How the data were processed

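Poly(A) RNA of 4 A549 samples was sequenced. FastQC 0.11.7, Trimmomatic 0.38, HISAT2 2.1.0, DESeq2 1.24.0 and featureCounts 1.6.3, with GRCh38, stand in the submitters' processing notes. The deposited table holds, per sample, a signal that the authors made by dividing the count of each gene by a DESeq2 size factor. The lowest nonzero value of a sample was read as a single read, and all values were then whole multiples of it (100% within 1e-06). In RM- replicate 1 and RM+ replicate 2, 1 read is worth 1.009 and 1.01 normalized counts, so close to 1 that recovery is less certain there, and the read totals, edgeR and DESeq2 rest on it. The authors' own comparison was not used: a deposited mean, standard error and statistic (score columns), log2 fold change and p-value. Columns of other samples numbered 0.

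The filter kept 17632 genes with 10 or more normalized counts in 2 or more samples. They were compared by limma 3.58.1 (R 4.3.3) on log2(normalized count + 1), two-sided, and p-values were adjusted over all of them after Benjamini and Hochberg, with a threshold of 0.05. The spread rests on 2 residual degrees of freedom and a prior of 14.8, and a permutation of 2 against 2 samples cannot give a p below 0.333. The procedure was tested on simulated data without a batch difference. The planted changes were larger than that of any mitotic gene, so this test does not cover changes as small as theirs. Alternatives were pseudocounts of 0.5 and 5, other filters, TMM and upper-quartile scaling, edgeR 4.0.16 and DESeq2 1.42.0 on the recovered reads, a replicate block, leaving out each sample, and each batch alone.

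The pairing of replicates comes from the labels, which give the batch. Same-numbered samples had correlated deviations from their group means. The correlation was 0.168 over all genes tested and 0.314 over those with a mean above 200 normalized counts, and genes are not independent. The prior of the block fit was infinite. The mitotic genes and the lists were chosen with earlier results of these data known. Named genes followed a rule: *CDKN1A* and 13 others set by name, per function the 3 with the smallest p and the one with the highest mean, all those called in a fit or above 0, and 2 of each other list. Sequence words and exon overlaps came from GENCODE v29 and promoters from RefSeq. Exon length is the union of annotated exons. Results for some genes of the lists are not reported here.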

Additional observations from a re-analysis of the deposited data

How the results depend on the processing

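No mitotic gene passed in limma under either pseudocount, either filter, either scaling or with any sample left out, nor in edgeR or DESeq2; with the replicate block 7 were lower, and at an unadjusted p under 0.05, 10 were. Their median was -0.13 to -0.064 with 1 sample left out or within a batch, and 38 to 48 of the 56 were below 0. The calls of single mitotic genes thus rest on the block, whose spread is pooled over all genes, and the cause of the difference between the fits was not tested. The other limma fits borrow spread across genes too. The main fit had 2 residual degrees of freedom and a prior of 14.8, and the fits with 1 sample left out had a prior of at least 59.4. Of further mitosis genes, the block called 4 lower, the unadjusted p 5, and leaving out a sample 0 to 1. For the APC/C, the median was -0.030 with TMM, -0.041 with upper-quartile scaling, -0.043 in edgeR and -0.0997 to -0.021 with samples left out. For DREAM and MMB, the block called 3 lower, the unadjusted p 3 lower and 1 higher, and the median was -0.113 to 0.055 with samples left out, -0.058 within batch 1 and -0.095 within batch 2. For S phase, the block called 3 higher, the unadjusted p 1 lower and 3 higher, 0 were higher with no filter, in edgeR, in DESeq2 or with the added fold rule, leaving out a sample gave 0 to 1 higher, and 12 were below 0 within batch 2. Of the 47 named genes, 14 changed sign in some setting other than a batch alone. Changes of sign within a batch, such as that of *PLK1* in batch 2, are not in this count. With samples left out, the log2 fold change was -0.021 to 0.035 for *CCNF*, -0.023 to 0.15 for *CDC25A*, -0.075 to 0.095 for *CDC25B*, -0.023 to 0.055 for *CDC25C*, -0.20 to 0.021 for *CENPE*, -0.19 to 0.12 for *CENPF*, -0.0028 to 0.088 for *CENPM*, -0.096 to 0.011 for *FOXM1*, -0.044 to 0.24 for *MKI67*, -0.044 to 0.046 for *MYBL2*, -0.0012 to 0.12 for *NCAPH*, -0.037 to 0.13 for *NDC80*, -0.36 to 1.12 for *NUSAP1*, -0.023 to 0.040 for *SPC25*. *MYBL2* was at -0.0058 with upper-quartile scaling and -0.0043 in edgeR. The block changed no call among the named genes other than those given with it. Low counts limit *NUSAP1* and *PRC1*.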
